A study of Mus musculus with 4 samples.

Results

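Semaphorins, their plexin and neuropilin receptors, and the plexin domain containing proteins were measured in CD8α+ and CD8α- dendritic cells (DCs) of the spleen of C57BL/6 mice. Members were all probe sets of the array whose single gene symbol in the platform annotation begins with Sema3 to Sema7, Plxna to Plxnd or Plxdc, or is Nrp1 or Nrp2. This rule uses names and no measured value, and it found 84 of 45037 probe sets, for 34 of the annotated symbols. One of the 34, Plxna4os1, is an antisense transcript that the rule takes through its prefix. Each population had 2 Affymetrix Mouse Genome 430 2.0 arrays, 4 in all, and the labels name no treatment, age or sorting scheme. Nothing in the labels ties the arrays of a population to separate animals, so limma's p-values reflect the spread between these arrays alone, and that spread may be technical. In bulk RNA such as this, fewer cells of a type and less RNA per cell cannot be told apart.

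Semaphorins are secreted or membrane-bound signals first known for steering axons. Plexins are their main receptors: on binding a semaphorin, a plexin acts through its cytoplasmic tail on small GTPases, and so on adhesion and the actin skeleton. Neuropilins have short tails and serve as co-receptors, both for the secreted class 3 semaphorins and for vascular endothelial growth factors. In the immune system, class 4 and class 7 members and their receptors are known from the contact of DCs with T cells, from costimulation and from cell migration.

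In these arrays, Sema4a and Sema4f were brighter in CD8α+ DCs, and the receptors Nrp2, Plxnb2, Plxnd1 and Plxnc1 were brighter in CD8α- DCs. Sema4a, a membrane semaphorin that DCs use in the costimulation of T cells, differed by 2.82 ± 0.32 log2 units (CD8α+ minus CD8α-, fit ± standard error, 2 arrays per population). Nrp2, the co-receptor that binds Sema3f among others, differed by -2.40 ± 0.37, or 5.28-fold. Nrp1, Plxna1 and Sema7a differed by less than the fit could separate from the spread between arrays. No member passed an adjusted p of 0.05 in limma, and neither did any other probe set of the 22519 tested. The lowest adjusted p was 0.115, which Sema4a shared with Cd8a. Differences are therefore described by limma's unadjusted p, with 0.05 as the limit for a call and the share of all tested probe sets past it as the background.

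Promoter sequences are shown for the gene pair brighter in CD8α+ DCs and for a neuropilin and a plexin brighter in CD8α- DCs. Plxnc1, the plexin shown, had the brightest signals of the called plexins but the smallest difference (-1.30, against -1.94 for Plxnd1 and -1.86 for Plxnb2). The sequences come from RefSeq's table for GRCm38.p6, which held 37 windows for 26 of the 34 members. Each is the stretch of 250 bases before the outermost annotated start, read 5′ to 3′ on the gene's strand, and capitals mark GC boxes (GGGCGG on either strand).
Sema4a, chr3:88461183-88461432, strand -: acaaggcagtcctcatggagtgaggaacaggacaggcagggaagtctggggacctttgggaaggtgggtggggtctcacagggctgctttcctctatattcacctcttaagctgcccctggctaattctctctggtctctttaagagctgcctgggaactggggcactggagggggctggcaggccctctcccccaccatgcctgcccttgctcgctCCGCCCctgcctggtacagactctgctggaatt
Sema4f, chr6:82939770-82940019, strand -: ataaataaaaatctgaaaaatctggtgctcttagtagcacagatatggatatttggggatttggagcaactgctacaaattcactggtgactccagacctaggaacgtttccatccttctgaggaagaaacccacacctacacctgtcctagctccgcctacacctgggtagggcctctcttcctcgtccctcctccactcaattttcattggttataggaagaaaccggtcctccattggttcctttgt
Nrp2, chr1:62703067-62703316, strand +: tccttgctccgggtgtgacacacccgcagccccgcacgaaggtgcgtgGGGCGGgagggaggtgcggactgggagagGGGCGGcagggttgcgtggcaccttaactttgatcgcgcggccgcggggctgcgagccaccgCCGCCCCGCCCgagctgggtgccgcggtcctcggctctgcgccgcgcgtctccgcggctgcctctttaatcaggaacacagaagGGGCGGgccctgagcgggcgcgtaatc
Plxnc1, chr10:94944846-94945095, strand -: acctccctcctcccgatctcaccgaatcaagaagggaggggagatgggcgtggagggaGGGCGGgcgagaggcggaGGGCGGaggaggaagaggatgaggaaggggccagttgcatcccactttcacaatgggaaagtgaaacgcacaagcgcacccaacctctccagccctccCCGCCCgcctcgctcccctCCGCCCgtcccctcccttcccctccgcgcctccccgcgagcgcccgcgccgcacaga
Over the window of 300 bases, which adds 50 bases after the start, Nrp2 held 5 GC boxes, Plxnc1 4, this start of Sema4a 1 and Sema4f 0. GC content was 70.7%, 69%, 59.7% and 48.7% in the same order. Searched on both strands, GC boxes were in 27 of the 37 member windows and in 35.6% of 32817 windows of all genes. The core bound by interferon regulatory factors (AANNGAAA) was in 4 member windows, those of Plxnc1 and Sema3a and a start each of Sema4d and Sema6b, against 23.9% of all windows. The AP-1 letters TGANTCA were in 3, a start each of Sema4c, Sema4d and Sema6b, against 7.81%. The ETS-IRF composite GGAANNGAA, which can overlap AANNGAAA, and the TATA letters TATAAA were in 0 member windows, against 8.25% and 13.6% of all. These are matches of letters in a short window, not sites of binding.

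The arrays differed in quality, and this bears on every value below. CD8α- replicate 2 was the dimmest, with a median deposited signal of 17.4 against 22.9 to 35.1 on the others, and its 3′ to 5′ ratio of Gapdh control signal was 10.7, against 1.53 to 2.02. Across all tested probe sets the CD8α+ pair correlated at r = 0.955 and the CD8α- pair at r = 0.835 (across probe sets, which are not replicates). Among the 30 members tested, 2 differed over 2-fold within the CD8α+ pair and 10 within the CD8α- pair. Cd8a, which defines the populations, read normalized signals of 2010 and 2340 in CD8α+ DCs and 15.2 and 27 in CD8α- DCs on its brightest probe set. Of 9 measured markers of conventional type 1 DCs 8 were brighter in CD8α+ DCs (summed signal 10636 to 10876 against 1938 to 2312), and of 5 tested type 2 DC markers 4 were brighter in CD8α- DCs (1383 to 1472 against 4660 to 7037 over 8 measured). Itgam was not above background on any array.

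Markers of other spleen cells also differed between the populations. Summed signals over 9 NK cell markers were 809 to 963 in CD8α+ and 2433 to 4118 in CD8α- arrays, with all 9 above background on both CD8α- arrays. For 9 monocyte markers the sums were 2830 to 2880 against 5293 to 7167, for 8 neutrophil markers 7056 to 7694 against 11941 to 14730, and for 10 macrophage markers 983 to 1100 against 1345 to 1938. Csf1r and Itgam stand in both the monocyte and the type 2 DC list, so these lists are not separate measures. Lyz2 (2120 and 2160 against 3290 and 4450) and Csf1r (213 and 213 against 1300 and 1890) held most of the monocyte sums. S100a8 (2490 and 2850 against 5540 and 4470) and S100a9 (3800 and 4020 against 6980 and 4520) held most of the neutrophil sums. The neutrophil gene Elane and the macrophage genes C1qc and Marco were above background on no array. Of the macrophage markers 5 were higher on both CD8α- arrays, and 1, Vcam1, was 5.58-fold brighter in CD8α+ DCs. The 5 include Marco, and C1qa, which was above background on CD8α- replicate 2 alone. Over all tested probe sets, 26.2% were higher on both CD8α- arrays and 26.1% on both CD8α+ arrays. Sums for 9 plasmacytoid DC markers were 1107 to 1217 against 1889 to 2543, for 9 B cell markers 331 to 354 against 483 to 485, and for 8 T cell markers 569 to 755 against 519 to 582. Tcf4 (650 and 762 against 1200 and 1810) held most of the plasmacytoid DC sums. In that list 3 genes were higher on both CD8α- arrays, and 1, Ccr9, on both CD8α+ arrays (104 and 95.8 against 66.1 and 4.04). In the last 3 lists only 1 to 4 genes exceeded background on an array: 10 endothelial and stromal genes summed to 137 to 160 against 231 to 284, 8 megakaryocyte genes to 228 to 243 against 218 to 263, and 7 erythroid genes to 132 to 172 against 154 to 194.

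Of the 84 member probe sets, 30 passed the filter on dim probe sets, for 17 genes, and 54 did not. The filter keeps probe sets with a mean normalized signal at or above 23, the median of the array. The background level of an array was set by its highest Bacillus control probe set after normalization, 30.8 and 21.8 on the CD8α+ and 28.3 and 34.5 on the CD8α- arrays. By that measure 41 of the 54 untested probe sets exceeded background on no array and the other 13 on 1 array, and their highest signal was 38.4. The 17 genes with no tested probe set were Sema3a, Sema3b, Sema3d, Sema3e, Sema3g, Sema4g, Sema5a, Sema5b, Sema6a, Sema6c, Plxna2, Plxna3, Plxna4, Plxnb1, Plxnb3, Plxdc2 and Plxna4os1. For these the arrays give no usable level, which does not show that the cells lack the transcript.

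Of the 30 tested, 4 probe sets were called brighter in CD8α+ DCs (13.3%), against 7.75% of all tested probe sets. In CD8α- DCs 8 were called brighter (26.7%), against 7.79%. The 4 are both probe sets of Sema4a and both of Sema4f, and the 8 are 3 of Nrp2, 3 of Plxnc1 and 1 each of Plxnb2 and Plxnd1, so these counts rest on 6 genes. Probe sets that passed the filter through the brighter population had to differ, so the shares describe these probe sets only. The populations did not overlap on 6 probe sets higher in CD8α+ (20%) and 14 higher in CD8α- DCs (46.7%), against 26.1% and 26.2% of all. The median difference of the 30 was -0.42, and that of all tested probe sets 0.01. Without CD8α+ replicate 1 or 2, the CD8α- calls came to 3 or 2 (10% or 6.67%, against 2.91% or 3.77% of all probe sets). Without CD8α- replicate 1 the CD8α+ calls came to 8, or 26.7%, which is near the 24% of all probe sets in that fit. The other scalings moved the CD8α- calls in the same direction in the members and in all probe sets. The CD8α+ calls of the members changed in number only with median centring. On the deposited scale the split of calls was 4 to 3 (12.9% and 9.68%, against 10.3% and 2.02% of all). With a common trimmed mean it was 4 to 11 (12.5% and 34.4%, against 5.68% and 16.8%), and with median centring 7 to 5 (23.3% and 16.7%, against 26.7% and 3.8%). The CD8α+ share of the members was thus near that of all probe sets on the deposited scale and with median centring.

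**Figure D1:**
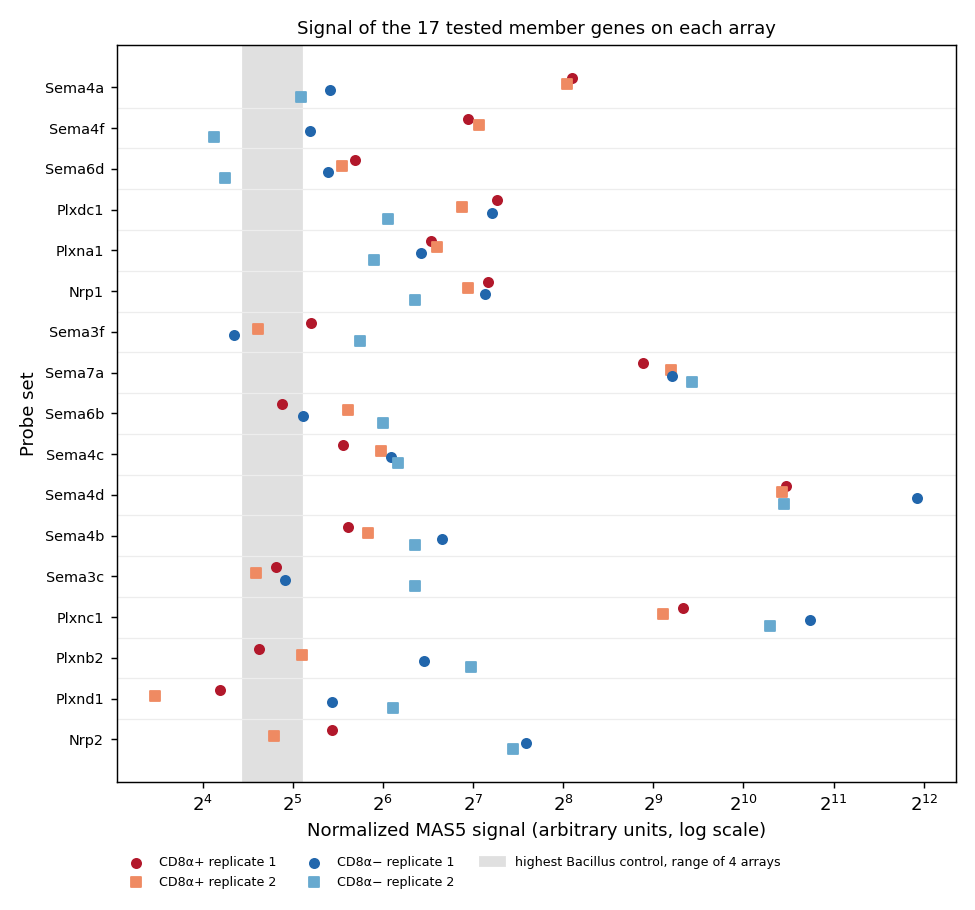
Normalized MAS5 signal (arbitrary units, log scale) of the 17 tested member genes, each by its brightest tested probe set, with a point for every array and the range of the highest Bacillus control in grey. Signals are comparable along a row and not between rows. Red and blue points lie clearly apart for Sema4a and Sema4f at the top and for Plxnc1, Plxnb2, Plxnd1 and Nrp2 at the bottom, and CD8α- replicate 2 stands low for Sema6d, Plxdc1 and Nrp1.

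Among the ligands, the class 4 semaphorins held the members brighter in CD8α+ DCs. Sema4a read 274 and 264 on the CD8α+ arrays and 42.5 and 34 on the CD8α- arrays with probe set 1448110_at. On 1438934_x_at it read 472 and 418 against 107 and 66.4, a 5.28-fold difference (2.40 ± 0.38). All pairs of a CD8α+ with a CD8α- array differed by 2.64 to 3.01 on the first probe set, and the adjusted p in limma was 0.115. The CD8α+ arrays were thus nearly equal and both far above either CD8α- array. No fold is given for 1448110_at, because only 1 of the CD8α- arrays exceeded background there.

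Sema4f, a membrane semaphorin known mainly from the nervous system, read 123 and 134 in CD8α+ DCs and 36.5 and 17.5 in CD8α- DCs on 1419328_at (2.34 ± 0.47, adjusted p = 0.17 in limma). On 1439768_x_at it read 507 and 436 against 98.5 and 68.1, a 5.74-fold difference (2.52 ± 0.36). Both populations stood apart on both probe sets. The suffix _x_at marks probe sets with probes that can match other transcripts. Both 1439768_x_at and the Sema4a probe set 1438934_x_at are of this kind. Their signals were close to each other on every array, with 472 and 418 against 107 and 66.4 on 1438934_x_at. Whether these probe sets detect other transcripts or a shared one was not tested, so 1439768_x_at may not be a separate measure of Sema4f.

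**Figure D2:**
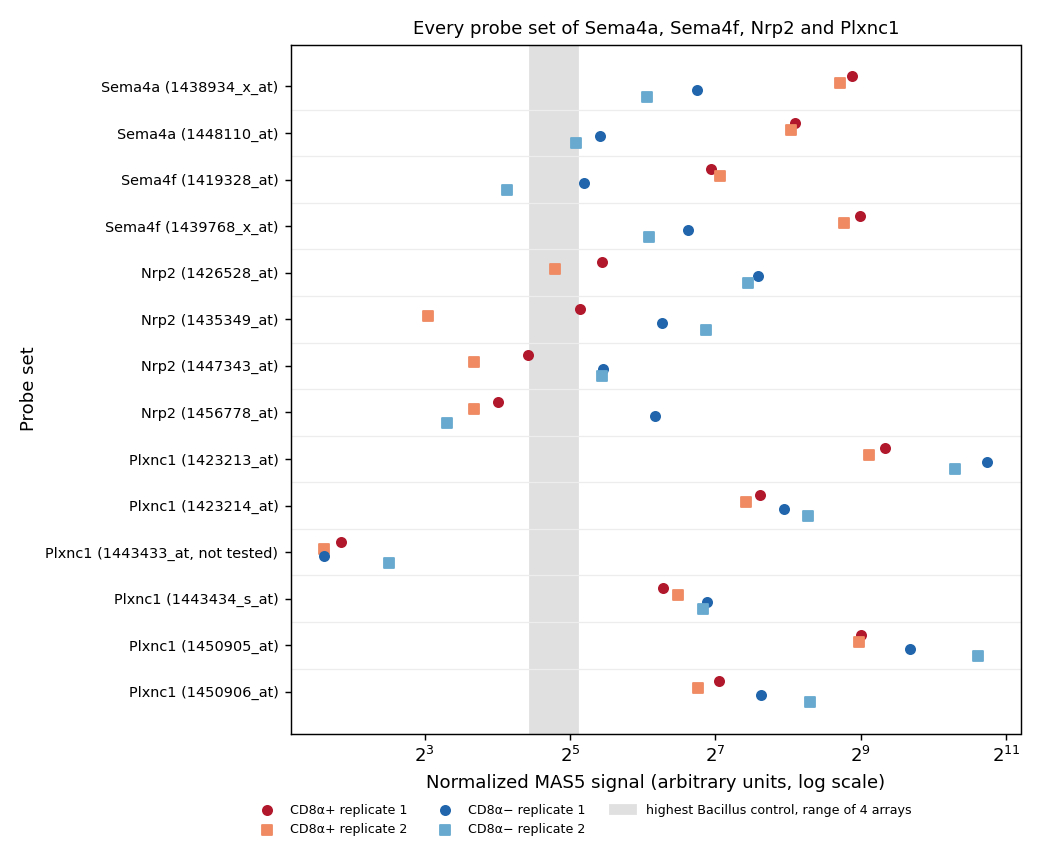
Normalized MAS5 signal (log scale) on each array for every probe set of Sema4a, Sema4f, Nrp2 and Plxnc1, with the range of the highest Bacillus control in grey. Both probe sets of Sema4a and of Sema4f are higher on the CD8α+ arrays, 3 of 4 Nrp2 probe sets and the 5 tested Plxnc1 probe sets are higher on both CD8α- arrays, and Plxnc1 probe set 1443433_at lies below background on all 4.

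The other class 4 members were not called. Sema4d (CD100), which T cells carry in abundance and which binds Plxnb1 and Cd72, read 1420 and 1380 in CD8α+ DCs and 3900 and 1400 in CD8α- DCs on 1420824_at. Here 1 array set the difference of -0.75 ± 0.58: leaving out CD8α- replicate 1 gave -0.01, and leaving out CD8α- replicate 2 gave -1.48, which was then called. The other tested probe set of Sema4d, 1434596_at, overlapped (-0.26 ± 0.60), and 1420823_at was not tested. T cell markers summed to 569 to 755 in CD8α+ and 519 to 582 in CD8α- arrays.

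Sema4b read 49.1 and 57 against 101 and 81.7, 1.72-fold higher in CD8α- DCs (-0.78 ± 0.33). It was called with no filter on dim probe sets, with a common trimmed mean and without CD8α- replicate 2 (-0.94). Sema4c, a ligand of Plxnb2, read 47.2 and 63.2 against 68.2 and 72 (-0.36 ± 0.34). Populations did not overlap in either gene, but the gap in Sema4c was smaller than the distance between the CD8α+ arrays.

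The secreted class 3 semaphorins were near background. Sema3c, which can bind both neuropilins, read 28.2 and 24.1 in CD8α+ DCs and 30.2 and 81.7 in CD8α- DCs (-0.93 ± 0.57), so that its difference rests largely on CD8α- replicate 2. Leaving out that array gave -0.21, and leaving out the other CD8α- array -1.65. Sema3c was called with a common trimmed mean, where the call includes the shift of all probe sets (-1.34 relative to that shift). Sema3f, the ligand best known for Nrp2, read 36.8 and 24.6 against 20.4 and 53.5 (-0.13 ± 0.59), with overlapping populations. The other 5 class 3 genes had no tested probe set.

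Class 6 semaphorins span the membrane and bind class A plexins. Sema6d, a ligand of Plxna1, read 51.5 and 46.7 against 42.1 and 19 (0.79 ± 0.49). Without CD8α- replicate 1 the difference was 1.37 and called, and without CD8α- replicate 2 it was 0.22. Sema6b read 29.4 and 49.1 against 34.7 and 63.9 (-0.31 ± 0.49), with overlap. Neither gene was called with all 4 arrays. Sema7a, which is tethered by a lipid anchor and binds Plxnc1 and the integrin of Itga1 and Itgb1, read 472 and 587 against 589 and 689 on 1459903_at (-0.28 ± 0.33). On 1422040_at it read 60.2 and 48.6 against 49.9 and 14.5 (1.01 ± 0.68). Its probe sets thus pointed in opposite directions, and relative to the shift of all probe sets 1459903_at gave 0.10 on the deposited scale, so no direction is given for Sema7a.

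The receptors held the members brighter in CD8α- DCs. Nrp2 read 43.2 and 27.8 in CD8α+ DCs and 192 and 174 in CD8α- DCs on 1426528_at (adjusted p = 0.135 in limma, lower on both CD8α+ arrays). The CD8α- arrays were close to each other here, 0.14 log2 units apart. Probe set 1435349_at read 35.3 and 8.24 against 76.6 and 117 (-2.47 ± 0.79), and 1447343_at read 21.4 and 12.8 against 43.8 and 43.3, at least 1.68-fold (-1.40 ± 0.39). The remaining 1456778_at was high on CD8α- replicate 1 alone, at 71.6 against 9.86 on replicate 2 and 16.1 and 12.8 in CD8α+ DCs, and was not called. Nrp2 is thus low but above background in CD8α+ DCs on its brightest probe set and higher on both CD8α- arrays on 3 of 4.

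Its paralog Nrp1, a co-receptor of Sema3a and of vascular endothelial growth factor, did not follow. It read 144 and 123 against 140 and 82.2 on 1448944_at (0.31 ± 0.40) and 96.8 and 55.9 against 69.3 and 53.7 on 1448943_at (0.27 ± 0.42). The populations overlapped on both. On 1418084_at the arrays of each population differed more than the populations did, with 9.26 and 43.5 against 15.3 and 96. The difference of 1448944_at was -0.08 without CD8α- replicate 2 and 0.69, not called, without CD8α- replicate 1. Whether Nrp1 and Nrp2 differ in their response was not tested.

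Plxnb2, a receptor of Sema4c and other class 4 ligands, read 24.7 and 34.3 in CD8α+ and 88.1 and 126 in CD8α- DCs on its 1 probe set (-1.86 ± 0.38, adjusted p = 0.177 in limma, higher on both CD8α- arrays). Only CD8α+ replicate 2 exceeded background in that population, so no fold is given. Plxnd1, the receptor of Sema3e, read 18.3 and 11.1 against 43.3 and 69, at least 2.11-fold (-1.94 ± 0.45, adjusted p = 0.198 in limma). Both CD8α+ arrays were below background for Plxnd1. Plxnb2 was not called without CD8α+ replicate 1 (-1.62), nor Plxnd1 without CD8α+ replicate 2 (-1.58).

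Plxnc1, the plexin receptor of Sema7a, was measured well above background by 5 of its 6 probe sets. On the brightest, 1423213_at, it read 645 and 551 in CD8α+ and 1710 and 1260 in CD8α- DCs, 2.46-fold higher in the latter (-1.30 ± 0.35, adjusted p = 0.233 in limma). Probe set 1450905_at read 512 and 503 against 821 and 1570 (2.23-fold), and 1450906_at 132 and 108 against 198 and 314 (2.09-fold). The other tested ones differed by -0.59 ± 0.33 (1423214_at) and -0.47 ± 0.31 (1443434_s_at) log2 units and were not called. On all 5, both CD8α- arrays were higher. The call on 1423213_at was lost without CD8α+ replicate 1 (-1.41) or 2 (-1.19). It was also lost on the deposited scale and with median centring. There the difference relative to all probe sets was -0.96 and -0.97. The call itself tests the difference with the shift of all probe sets (0.63 and 0.65) included.

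Plxna1, known from DCs as a receptor that works with the adaptor Tyrobp in contacts with T cells, read 92.8 and 96.9 against 85.7 and 59.8 (0.41 ± 0.35). The CD8α+ arrays were higher by 0.11 to 0.70, and the difference was not called with all 4 arrays. It was 0.66 and called without CD8α- replicate 1, and 0.15 without CD8α- replicate 2. Plxdc1, a membrane protein with a plexin-like domain known from tumour endothelium, read 154 and 118 against 148 and 66.6 (0.44 ± 0.51). It overlapped, and the difference was -0.13 without CD8α- replicate 2 and 1.02, then called, without CD8α- replicate 1. Median centring, which shifted all probe sets by 0.65, also gave calls for Plxna1, Plxdc1 and Nrp1, at 0.41, 0.56 and 0.46 relative to that shift. These calls test the differences with the shift included. Beside the receptors brighter in CD8α- DCs stand the NK cell, monocyte, neutrophil, macrophage, plasmacytoid DC and B cell markers given above, whose sums were higher there too. Their part in the receptor signals was not tested.

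**Figure D3:**
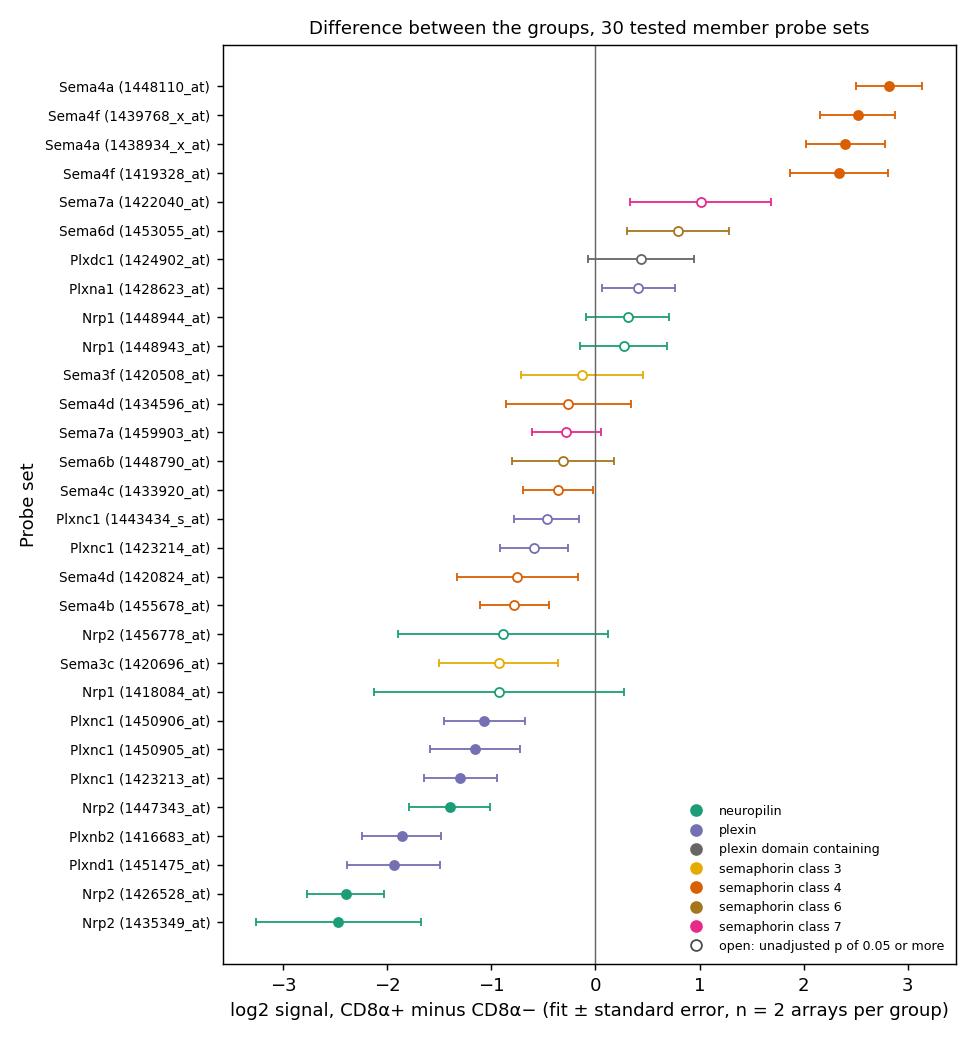
Difference in log2 signal between the populations (CD8α+ minus CD8α-, fit ± standard error, 2 arrays per population) for the 30 tested member probe sets, coloured by class. Filled points have an unadjusted limma p under 0.05. The 4 filled points on the right are Sema4a and Sema4f, and the 8 on the left are Nrp2, Plxnc1, Plxnb2 and Plxnd1.

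The 6 genes called kept their direction under all 12 alternative settings, taken relative to the shift of all probe sets where the arrays were rescaled. The p-values of limma test the differences with that shift included. Sema4a ranged from 2.40 to 2.98 and Sema4f from 1.78 to 2.87. Nrp2 ranged from -2.72 to -1.96, Plxnb2 from -2.12 to -1.43, Plxnd1 from -2.33 to -1.22 and Plxnc1 from -1.52 to -0.93. For Sema4a, Sema4f and Nrp2 the unadjusted p stayed under 0.05 in each of the 12.

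**Figure D4:**
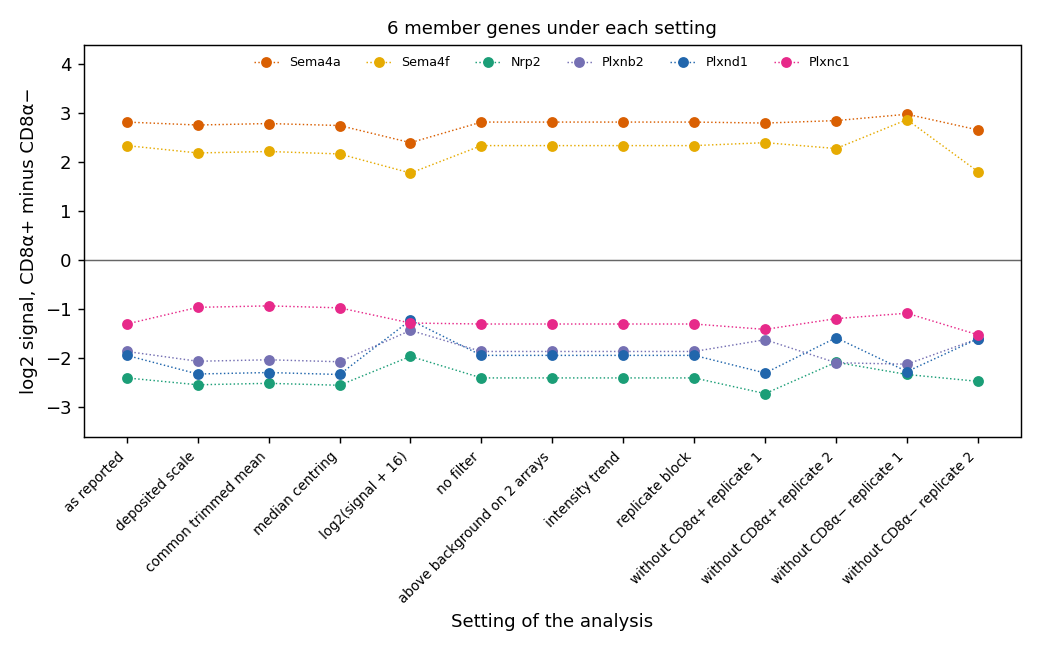
Difference in log2 signal (CD8α+ minus CD8α-) of the 6 called genes, each by its brightest tested probe set, as reported and under 12 alternative settings. Values on the deposited scale, with a common trimmed mean and with median centring are relative to the median of all tested probe sets. Sema4a and Sema4f stay above 0 and the 4 receptors below it.

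The remaining genes of the pathway were taken from a list of 72 partners that the member rule does not name, of which 54 had a tested probe set. Of these, 7 were called brighter in CD8α+ DCs (13%), against 7.13% of all tested genes, and 10 in CD8α- DCs (18.5%), against 8.82%. None passed an adjusted p of 0.05 in limma. The median difference was -0.29, against -0.02 over all genes. Leaving out 1 array changed the number of calls in the partners and in all genes, and each such fit leaves 1 array in a population. On the deposited scale the partner calls split 12 to 2 (22.2% and 3.7%, against 10.4% and 2.47% of all genes). With median centring they split 17 to 2 (31.5% and 3.7%), close to the 28.3% and 4.31% of all genes.

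Of 11 tested genes for other receptors and co-receptors, 2 were called brighter in CD8α+ (18.2%) and 3 in CD8α- DCs (27.3%), against 7.13% and 8.82% of all tested genes. Met, the hepatocyte growth factor receptor that pairs with class B plexins, read 405 and 365 in CD8α+ DCs and 67.9 and 14.5 in CD8α- DCs (3.62 ± 0.80). Itga1, a chain of the integrin that binds Sema7a, read 220 and 234 against 56.3 and 11.5 (3.16 ± 0.82). In both genes the CD8α+ arrays were nearly equal and the CD8α- arrays over 2-fold apart, with CD8α- replicate 2 below background.

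Cd72, the receptor of Sema4d on B cells and DCs, read 67 and 55.6 against 223 and 135, 2.84-fold higher in CD8α- DCs (-1.51 ± 0.40). Of 9 measured B cell markers, 4 were higher on both CD8α- arrays and 1 on both CD8α+ arrays, against 26.2% and 26.1% of all tested probe sets. Of 6 tested, Blk was called 3.74-fold brighter in CD8α- DCs and Ms4a1 2.74-fold brighter in CD8α+ DCs. Their part in the Cd72 signal was not tested. L1cam, an adhesion molecule that forms a complex with Nrp1, read 50 and 62.2 against 137 and 226 (3.15-fold, -1.66 ± 0.40). Tyrobp (DAP12), the adaptor used by Plxna1, read 2160 and 2600 against 4470 and 5060 (2.00-fold, with array pairs from -1.23 to -0.78), and it is also used by NK and myeloid receptors. Trem2, which joins Plxna1 and Tyrobp, and Timd2, a receptor of Sema4a, had no probe set that passed the filter, and neither exceeded background on any array.

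Of the 5 tested ligands of neuropilins and Plxdc proteins, 1 was called in CD8α+ (20%) and 2 in CD8α- DCs (40%), against 7.13% and 8.82% of all tested genes. Serpinf1 (pigment epithelium-derived factor), a ligand of Plxdc1 and Plxdc2, read 266 and 305 against 21.3 and 57.4 (3.03 ± 0.57). Nid1, a basement membrane protein that binds Plxdc proteins, read 14.6 and 21.8 against 55.8 and 62.4, at least 2.28-fold higher in CD8α- DCs (-1.73 ± 0.36). In Nid1 both CD8α+ arrays were not above background.

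Of 17 tested GTPases and regulators at the plexin tail, 1 was called brighter in CD8α+ (5.88%) and 2 in CD8α- DCs (11.8%), near the shares over all tested genes. Farp2, an exchange factor that binds class A plexins, read 34.3 and 34.5 against 10.4 and 12.9, at least 1.10-fold (1.57 ± 0.32). Rnd3, a GTPase that opposes RhoA, read 162 and 133 against 381 and 551, 3.12-fold higher in CD8α- DCs (-1.64 ± 0.36). Farp2 was thus close to background even where it was brighter.

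Kinases, redox enzymes and cytoskeletal effectors were called 3 times in each direction among 21 tested (14.3% each, against 7.13% and 8.82% of all tested genes). Mical2, of a family of enzymes that oxidise actin downstream of plexins, read 174 and 177 in CD8α+ and 23.3 and 21.2 in CD8α- DCs, at least 5.61-fold (2.98 ± 0.31, adjusted p = 0.115 in limma, higher on both CD8α+ arrays). Its paralog Mical3 went the other way, with 221 and 220 against 552 and 508 (2.40-fold, -1.27 ± 0.31). Micall1, a related protein of endosomal membranes, read 400 and 372 against 114 and 166 (2.80-fold, 1.49 ± 0.35). Dpysl3, a collapsin response mediator of the growth cone, read 8.03 and 14.7 against 41.9 and 50.9, at least 1.78-fold higher in CD8α- DCs (-2.09 ± 0.43). In Mical2, Mical3, Micall1 and Dpysl3 the populations did not overlap, as in 53.9% of all tested genes.

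**Figure D5:**
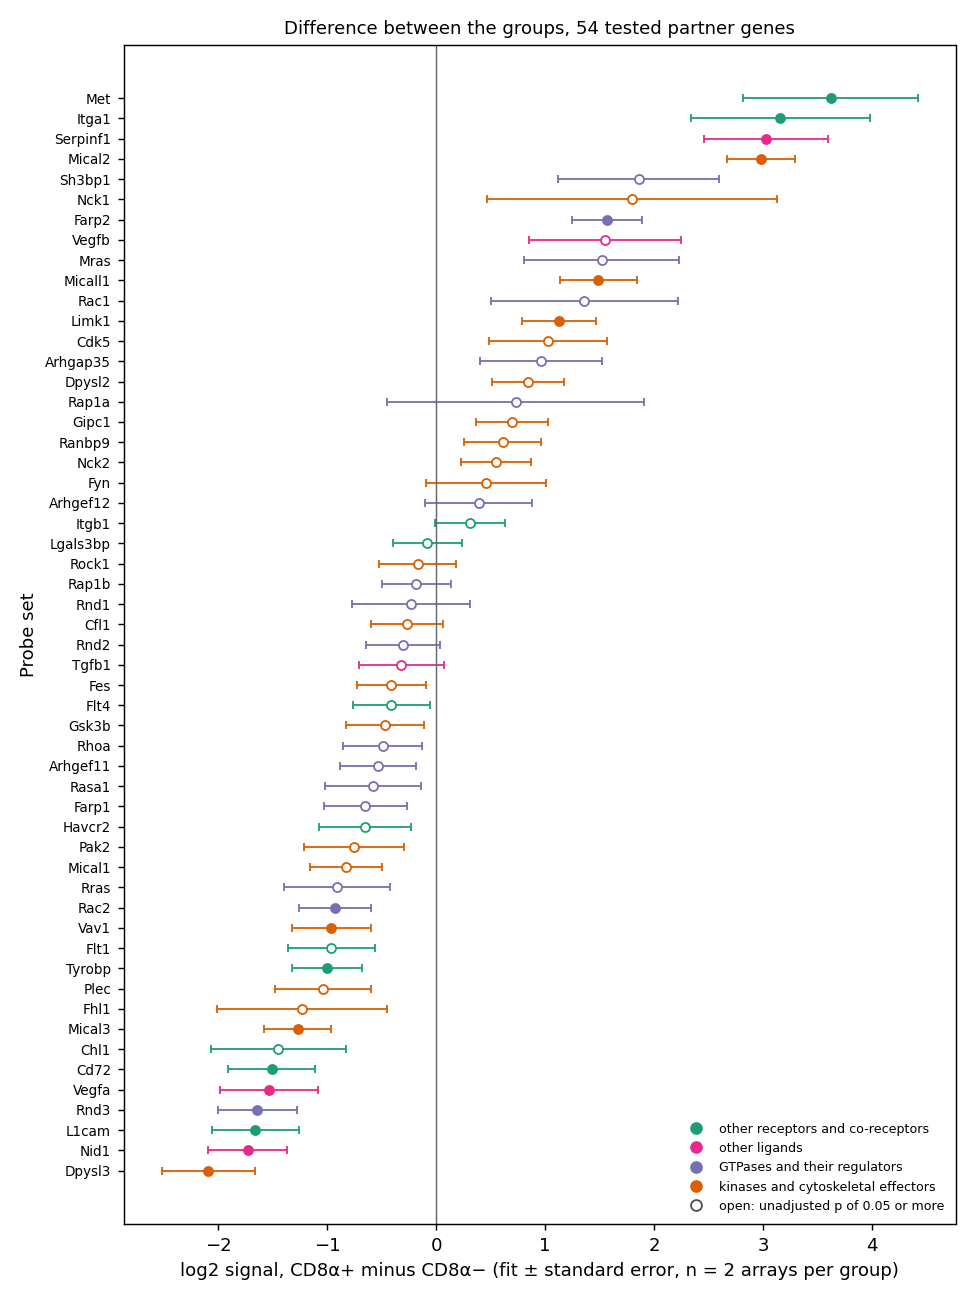
Difference in log2 signal between the populations (CD8α+ minus CD8α-, fit ± standard error, 2 arrays per population) for the 54 tested partner genes, coloured by their role. Filled points have an unadjusted limma p under 0.05. Met, Itga1, Serpinf1 and Mical2 lie farthest to the right and Dpysl3, Nid1 and L1cam farthest to the left.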

How the data were processed

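RNA of 2 CD8α+ and 2 CD8α- DC samples was hybridized to the arrays. The series' design text names RNeasy, mRNA purification and Ovation cDNA labelling, while the labels' protocols name Trizol and cRNA, and the sources do not say which holds. The authors deposited intensity values, 1 MAS5 signal per probe set on a linear scale (MAS5 per the submitters' processing notes). No scaling target or detection calls are given. Since the array medians differed, log2 signals were quantile normalized. For log2 values, signals were then raised to a floor of 6.99 (the mean 25th percentile), and 64 control probe sets were left out. Signals and marker sums are given without the floor. Symbols came from the platform annotation (34945 probe sets with 1 symbol, 932 with several and 9160 with none). Entrez identifiers of all 84 member probe sets were in the RefSeq gene table.

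Differences were fitted with lmFit and eBayes of limma 3.58.1 (R 4.3.3, two-sided) on 22519 probe sets, with Benjamini-Hochberg adjustment over all of them. The fit, with 2 residual and 2.48 prior degrees of freedom, was tested on simulated data. Their spread was set rather than taken from these arrays, and was the same on all 4. At an adjusted p under 0.05 in limma the fit recovered 29% of changes of 1 log2 unit and 100% of changes of 3, all placed in brighter probe sets. The simulation held no array of poor quality, so it does not show how the fit performs on arrays as unequal as these. An exact permutation test of 2 against 2 arrays cannot go below p = 0.333 and was not used. A gene is given by its brightest tested probe set, without names ending in _x_at where it had another. A fold is given where all 4 arrays exceed background. Where neither array of the dimmer group does, it is "at least", the brighter mean over the dimmer one, each dim array being raised to its background level. The number of arrays limits the precision. Members and lists were chosen with earlier results of these data known. Signals are given for members above background on both arrays of a group, and partners are named if called and so measured (up to 12, by p), plus Tyrobp, Trem2, Cd72 and Timd2. Alternatives were other scalings, log2(signal + 16), other filters, an intensity trend, a replicate block and leaving out each array. Python 3.11.15, pandas 2.3.3 and matplotlib 3.10.9 handled tables and figures.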

Additional observations from a re-analysis of the deposited data

How the results depend on the processing

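Scaling moved all probe sets together: the median of all tested ones was 0.63 on the deposited scale, 0.65 with median centring and -0.21 with a common trimmed mean, against 0.01. Member probe sets at an adjusted p under 0.05 in limma numbered 0, but 3 with median centring (406 of all probe sets) and 1 with an intensity trend (60 of all). Those brighter in CD8α- DCs at unadjusted p numbered 8, with 3 on the deposited scale, 5 with median centring and 2 to 8 leaving out 1 array. Those brighter in CD8α+ DCs numbered 4, with 7 under median centring and 4 to 8 leaving out 1 array. Partner genes brighter in CD8α- DCs numbered 10, with 2 on the deposited scale, 2 with median centring and 1 to 20 leaving out 1 array. Partners brighter in CD8α+ DCs numbered 7, with 12, 17 and 4 to 16 in that order. Leaving out either CD8α- array leaves the spread to the close CD8α+ pair alone. Without CD8α- replicate 1, the CD8α- group is replicate 2, the dimmest array, with the Gapdh ratio of 10.7. Its part in the counts of that fit was not tested. Other counts with all 4 arrays stayed within 1.5 times.

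Among uncalled genes, leaving out 1 array turned the sign of Nrp1 (-0.08 to 0.69), Plxdc1 (-0.13 to 1.02), Sema3f (-0.83 to 0.56) and Sema6b (-0.75 to 0.13). Sema7a turned to 0.10 on the deposited scale, 0.13 with a common trimmed mean, 0.09 with median centring (each relative to the shift) and 0.37 as the median of its probe sets. The cause was not tested. Same-numbered samples shared only a number (their deviations correlated at 0.0311). A fit with the replicate block gave 4 and 6 member calls (13.3% and 20%, against 8.67% and 7.43% of all probe sets). It gave 9 and 8 partner calls (16.7% and 14.8%, against 7.65% and 8.33% of all genes), and 0 members at the adjusted threshold.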
